A study of Mus musculus with 12 samples.

Results

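Azurophil granule genes were examined in mouse neutrophils cultured with bile acids. These were the 5 genes Mpo, Elane, Prtn3, Ctsg and Ms4a3, which were found by symbol in the deposited count table of 29737 genes. Of these 29737 genes, 16761 had enough counts to be tested, and all 5 azurophil granule genes were among them. The rows were picked by symbol alone, but the 5 symbols were chosen with earlier results of these data known. The shares of the 5 genes given below are therefore descriptions. Azurophil granules, also called primary granules, are the first granules formed in the neutrophil lineage, and their proteins are made at the promyelocyte stage in the bone marrow and stored. Transcription of these genes is largely shut down as the cells mature, so that a mature neutrophil carries the proteins but little of the mRNA. Mpo encodes myeloperoxidase, which makes hypochlorous acid, Elane, Prtn3 and Ctsg encode the serine proteases neutrophil elastase, proteinase 3 and cathepsin G, and Ms4a3 encodes a membrane-spanning protein that marks granulocyte and monocyte precursors.

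The study asked how primary bile acids change neutrophils. Neutrophils from the bone marrow of WT mice were cultured in RPMI medium with 10% fetal bovine serum, and PBS as the control or 1 bile acid was added for 24 h. Each of the 4 groups, PBS, TCA, Tβ-MCA and GCA, had 3 samples, so 12 samples of mRNA were sequenced. TCA and GCA are cholic acid conjugated with taurine and with glycine and were given at 200 µM, and Tβ-MCA is β-muricholic acid conjugated with taurine. The labels give 10 µM for Tβ-MCA and the study's methods give 200 µM. The study's mice were female C57BL/6 bought at an age of 4 to 6 weeks, but the age at which these cells were taken and whether mice were pooled are not given in the sources used here. The labels describe Ly6G+ cells sorted with magnetic beads, and the methods describe a separating medium followed by a kit that enriches neutrophils. The study describes its averaged data in general terms as coming from biologically independent experiments, but no source used here says whether the sequenced samples of 1 group came from separate mice or cultures, so the p-values measure the spread between these samples, which may be technical.

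The total count per sample lay between 32757389 and 41375925. Levels are given as CPM (counts relative to each sample's total) with TMM scaling, a correction for library composition, and a limit of 3 counts corresponded to 0.0725 to 0.0931 CPM, which covers counting error only. The neutrophil markers were present in every sample, with the 15 genes of that list summing to between 29040 and 40304 CPM. Markers of other cells of the bone marrow were present too, and the 12 markers of monocytes and macrophages summed to 2191 to 2340 CPM with PBS. Tβ-MCA replicate 5 stood apart from Tβ-MCA replicates 3 and 4 in the genes described here, so the results on these genes and the counts of the gene lists with Tβ-MCA are given with and without it. It was singled out after its values had been seen.

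The 5 genes lie on 4 chromosomes of the mouse genome GRCm38, and all are annotated as protein coding in GENCODE M21. Mpo lies at chr11:87793581-87804413 on the plus strand. Elane at chr10:79886312-79888216 and Prtn3 at chr10:79874476-79883174 are neighbours on the plus strand, with 3138 bases between them. Ctsg lies at chr14:56099881-56102574 and Ms4a3 at chr19:11629496-11640851, both on the minus strand. Elane, Ctsg and Ms4a3 share no exon bases with another gene of the table. The antisense gene Gm11505 covers 512 of the 3424 exon bases of Mpo, and Plppr3 on the minus strand covers 159 of the 1732 exon bases of Prtn3. The library kit keeps the strand, but whether the counting used it is not given in the sources used here, so counts of these pairs may be shared.

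The 250 bases before the start of each gene in RefSeq are shown because the 5 genes moved in the same direction with Tβ-MCA. They are written 5′ to 3′ along the gene's own strand, in the build GRCm38.p6, and the capitals mark the 6 letters GGAAGT, the core that ETS family factors such as PU.1 are known to bind.
Mpo promoter, chr11:87793534-87793783, plus strand: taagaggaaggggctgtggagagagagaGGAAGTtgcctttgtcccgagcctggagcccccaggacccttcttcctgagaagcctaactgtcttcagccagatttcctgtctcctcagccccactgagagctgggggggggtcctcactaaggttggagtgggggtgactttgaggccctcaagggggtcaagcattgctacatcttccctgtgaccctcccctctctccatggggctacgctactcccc
Elane promoter, chr10:79886062-79886311, plus strand: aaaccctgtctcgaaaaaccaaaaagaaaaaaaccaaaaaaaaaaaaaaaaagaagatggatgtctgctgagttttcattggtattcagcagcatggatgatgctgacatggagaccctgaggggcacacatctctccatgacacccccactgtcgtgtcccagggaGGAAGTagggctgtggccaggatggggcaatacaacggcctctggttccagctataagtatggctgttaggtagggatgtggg
Prtn3 promoter, chr10:79879417-79879666, plus strand: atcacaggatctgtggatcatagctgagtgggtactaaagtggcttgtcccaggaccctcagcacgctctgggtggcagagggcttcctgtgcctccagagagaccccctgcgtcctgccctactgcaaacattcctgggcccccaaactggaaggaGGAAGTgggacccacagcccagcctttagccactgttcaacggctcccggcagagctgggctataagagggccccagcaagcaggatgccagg
Ctsg promoter, chr14:56102575-56102824, minus strand: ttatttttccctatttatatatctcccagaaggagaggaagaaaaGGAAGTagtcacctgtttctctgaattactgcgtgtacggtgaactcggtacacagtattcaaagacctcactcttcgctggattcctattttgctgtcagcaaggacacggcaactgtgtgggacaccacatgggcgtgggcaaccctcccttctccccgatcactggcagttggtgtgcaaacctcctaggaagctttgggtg
Ms4a3 promoter, chr19:11640852-11641101, minus strand: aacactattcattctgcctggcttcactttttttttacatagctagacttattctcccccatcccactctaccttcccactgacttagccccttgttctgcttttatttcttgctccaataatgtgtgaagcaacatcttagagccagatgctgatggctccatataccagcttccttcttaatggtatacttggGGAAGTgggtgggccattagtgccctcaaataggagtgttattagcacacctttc

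The letters GGAAGT stood on the gene's own strand in all 5 windows, with their first base 222 bases before the start in Mpo, 83 in Elane, 93 in Prtn3, 205 in Ctsg and 55 in Ms4a3. Read on both strands, GGAAGT occurred in 19.99% of the 27025 promoter windows of the same length in the RefSeq table. The longer AGGAAGT, which contains it, occurred in 4 of 5 windows against 7.80% of all, and GAGGAAGT, which contains both, in the 3 windows of Mpo, Elane and Prtn3 against 2.44%. The neighbours Elane and Prtn3 shared a further pair of motifs, the MYB core AACGG, found in 14.8% of all windows, and the TATA-type letters TATAAG, found in 6.81%. The RUNX core TGTGGT was in the window of Ctsg (14.2% of all) and the C/EBP-type TTNNGNAA in that of Ms4a3 (36.9% of all). These 7 motifs, all searched on both strands, were chosen with the sequences in view, and a match describes letters, not a bound site. For Prtn3 and Mpo the table used for counting starts upstream of the RefSeq start, so that all 250 bases of the Prtn3 window and 203 of those of the Mpo window lie inside the counted span of the gene, against 0 for the other 3.

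With PBS, the mRNA level per exon length differed between the 5 genes in a fixed order. In RPKM, the deposited unit scaled to exon length and library size, Mpo was highest with 58.7 ± 2.10 (SD, n = 3), ahead of Elane with 27.03 ± 3.50, Ctsg with 18.2 ± 0.408, Prtn3 with 7.61 ± 0.758 and Ms4a3 with 3.25 ± 0.554. No range of 1 gene overlapped that of the next over the 3 PBS samples. By RPKM, Mpo ranked between 951 and 1055 among all genes in the PBS samples, and Ms4a3 between 7787 and 8804. With Tβ-MCA the rank of Mpo was 4849 in replicate 3, 3869 in replicate 4 and 1273 in replicate 5. The order of the genes was kept in Tβ-MCA replicates 4 and 5, whereas in replicate 3 the RPKM of Ctsg (4.20) was above that of Elane (3.02).

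Tβ-MCA was accompanied by lower mRNA of all 5 azurophil granule genes, strongly in replicates 3 and 4 and slightly in replicate 5. Together they held 263 to 270 CPM in the PBS samples, and 47.2, 67.2 and 203 CPM with Tβ-MCA in replicates 3, 4 and 5. The fitted log2 fold changes against PBS ran from -1.43 for Elane to -0.51 for Ms4a3, with a median of -1.30 against 0.0041 over all genes tested. In edgeR's quasi-likelihood test over all 12 samples, 0 of 5 genes had a Benjamini-Hochberg adjusted p under 0.05, which 7.62% of all genes tested had in either direction. At an unadjusted p under 0.05 and a 2-fold change, 3 of 5 genes were lower, namely Mpo, Elane and Ctsg, against 1.86% of all genes tested. The study's methods give these thresholds for edgeR without saying whether p was adjusted. Elsewhere they name DESeq2 with Benjamini-Hochberg adjustment, so which p was meant is unclear. All 5 genes had an unadjusted p under 0.05, against 12.3% of all genes tested that were lower by that criterion. In 4 of 5 genes, all but Ms4a3, every Tβ-MCA sample lay below every PBS sample, against 12.8% of all genes tested. In such bulk samples, fewer cells that express these genes and less mRNA per cell cannot be told apart.

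**Figure D1:**
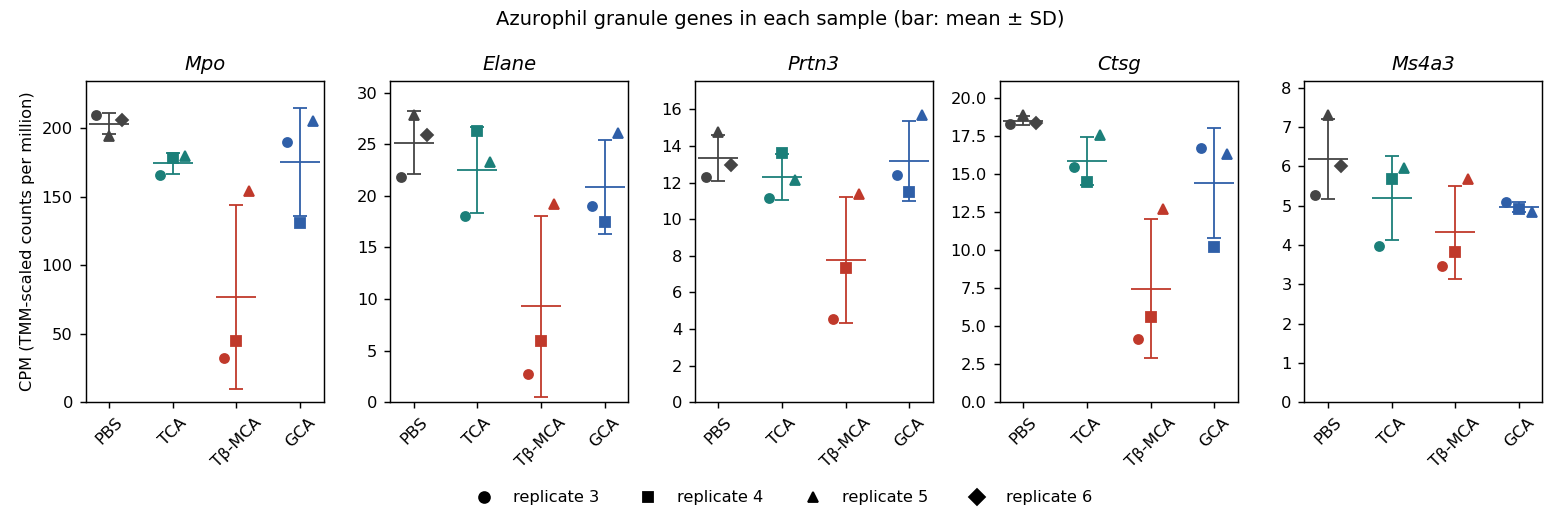
Level of each azurophil granule gene in TMM-scaled CPM (vertical axes from 0) in the 12 samples, with PBS, TCA, Tβ-MCA and GCA along the horizontal axis, 1 symbol per replicate number and a bar for the mean ± SD of 3 samples. In the Tβ-MCA group the samples of replicates 3 and 4 lie below every other sample in all 5 panels, while replicate 5 lies near the other groups, for example 154 CPM of Mpo against 32.3 and 44.5 CPM.

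Mpo, the myeloperoxidase gene, held 209, 195 and 206 CPM in PBS replicates 3, 5 and 6. With Tβ-MCA it held 32.3, 44.5 and 154 CPM in replicates 3, 4 and 5. The Tβ-MCA samples were all below the PBS samples, at 15.9%, 21.9% and 75.9% of the PBS mean. The means were 203 ± 7.85 CPM with PBS and 77.0 ± 67.2 CPM with Tβ-MCA (SD, n = 3 each). The log2 fold change was -1.40 (SE 0.52), with an adjusted p of 0.137 in edgeR. The antisense gene Gm11505 followed Mpo in every sample, with 0.460 to 0.501 counts for each count of Mpo, and its log2 fold change was -1.40 (adjusted p = 0.136 in edgeR).

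Elane, the neutrophil elastase gene, showed the lowest single value relative to PBS. It held 21.8, 27.8 and 25.9 CPM in the PBS samples and 2.72, 5.94 and 19.2 CPM with Tβ-MCA in replicates 3, 4 and 5. Replicate 3 was thus at 10.8% of the PBS mean, replicate 4 at 23.6% and replicate 5 at 76.3%, and no sample overlapped the PBS samples. The log2 fold change was -1.43 (SE 0.57, adjusted p = 0.160 in edgeR).

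Prtn3, which encodes proteinase 3 and lies next to Elane, differed less than its neighbour. It held 12.3, 14.7 and 12.97 CPM in the PBS samples and 4.55, 7.35 and 11.4 CPM with Tβ-MCA in replicates 3, 4 and 5, which is 34.1%, 55.1% and 85.3% of the PBS mean. The Tβ-MCA samples lay below the PBS samples, with replicate 5 only just so. The log2 fold change was -0.78 (SE 0.25, adjusted p = 0.0811 in edgeR). The number of Elane counts for each Prtn3 count was 1.77, 1.88 and 1.99 in the PBS samples, and 0.599, 0.809 and 1.69 in Tβ-MCA replicates 3, 4 and 5. With GCA it was 1.53, 1.52 and 1.66, and with TCA 1.62, 1.93 and 1.92. The Tβ-MCA and GCA ratios were all below those of PBS, each with a two-sided exact permutation p of 0.10, the smallest that 3 samples against 3 allow, and 0.15 after Benjamini-Hochberg adjustment over 3 comparisons. The exact permutation p for TCA was 0.70. Without Tβ-MCA replicate 5 the exact permutation p for Tβ-MCA was 0.20, the smallest that 2 samples against 3 allow.

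Ctsg, the cathepsin G gene, was the tightest of the 5 genes among the PBS samples, with 18.3, 18.8 and 18.3 CPM. In Tβ-MCA replicates 3, 4 and 5 it held 4.13, 5.59 and 12.7 CPM, or 22.3%, 30.3% and 68.5% of the PBS mean. All Tβ-MCA samples were below the PBS samples, and replicate 5 lay further from PBS in this gene than in the other 4. The log2 fold change was -1.30 (SE 0.35), and the adjusted p of 0.0556 in edgeR was the lowest of the 5 genes. The number of Mpo counts for each Ctsg count was 7.83 and 7.96 in Tβ-MCA replicates 3 and 4, below the 10.3 to 11.5 of the PBS samples, and 12.2 in replicate 5, above them.

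Ms4a3, the gene of the membrane protein of granulocyte and monocyte precursors, differed least. It held 5.28, 7.30 and 6.01 CPM in the PBS samples and 3.47, 3.84 and 5.67 CPM with Tβ-MCA in replicates 3, 4 and 5. Replicates 3 and 4 were below all PBS samples, at 56.0% and 61.9% of the PBS mean, and replicate 5, at 91.6%, lay within their range. The log2 fold change was -0.51 (SE 0.19, adjusted p = 0.114 in edgeR).

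**Figure D2:**
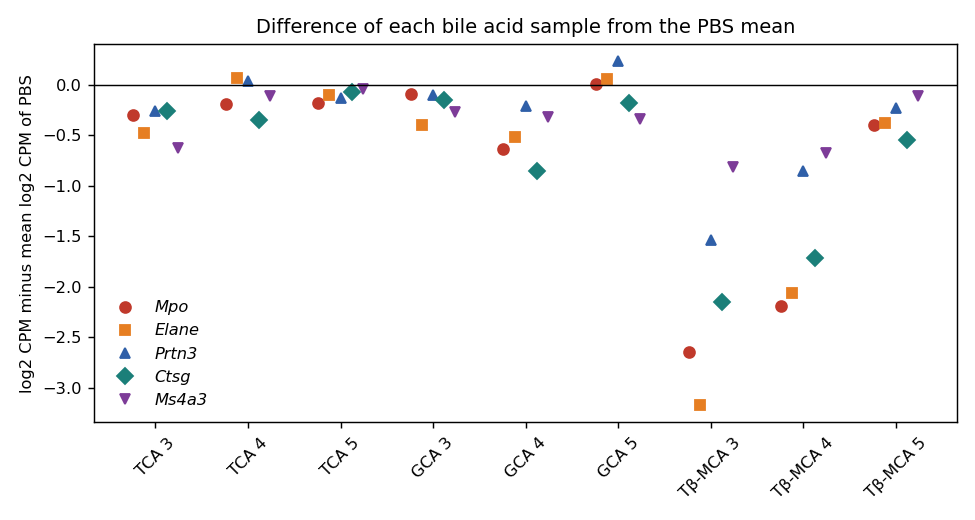
Difference of each bile acid sample from the PBS mean for the 5 azurophil granule genes, as log2 CPM of the sample minus the mean log2 CPM of PBS (vertical axis), with 1 column per sample and 1 symbol per gene. In Tβ-MCA replicate 3 the genes spread from -3.17 (Elane) to -0.81 (Ms4a3), in replicate 4 from -2.19 (Mpo) to -0.67 (Ms4a3) and in replicate 5 from -0.54 (Ctsg) to -0.11 (Ms4a3).

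The genes differed in size within 1 sample in a similar order in Tβ-MCA replicates 3 and 4. In replicate 3 the log2 difference from the PBS mean was -3.17 for Elane, -2.65 for Mpo, -2.15 for Ctsg, -1.54 for Prtn3 and -0.81 for Ms4a3. In replicate 4 it was -2.06 for Elane, -2.19 for Mpo, -1.72 for Ctsg, -0.85 for Prtn3 and -0.67 for Ms4a3. In replicate 5 the 5 values lay between -0.54 and -0.11. Across the 12 samples, Pearson's r of log2 CPM between members was between 0.93 and 0.98 for the 6 pairs of Mpo, Elane, Prtn3 and Ctsg, and 0.75 to 0.81 for Ms4a3 with each of the other 4. The points of these correlations share libraries, and the Tβ-MCA samples set most of their range.

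Without Tβ-MCA replicate 5, the comparison of 2 Tβ-MCA samples with 3 PBS samples gave an adjusted p under 0.05 for all 5 genes. That replicate was singled out after its values had been seen, and of the Tβ-MCA samples it was the closest to PBS in all 5 genes. The p-values of this fit are therefore no separate support. Leaving out any other 1 sample of the 2 groups gave 0 of 5 genes at an adjusted p under 0.05. The mean level of Mpo was 38.4 ± 8.58 CPM in the remaining Tβ-MCA samples, and its log2 fold change was -2.40 (SE 0.19, adjusted p = 6.21e-05 in edgeR). Elane fell by 2.53 on the log2 scale (SE 0.32, adjusted p = 0.000644), Ctsg by 1.92 (SE 0.20, adjusted p = 6.21e-05), Prtn3 by 1.16 (SE 0.19, adjusted p = 0.000813) and Ms4a3 by 0.76 (SE 0.19, adjusted p = 0.0112). Of the 17131 genes tested in that fit, 9.44% fell by the same criterion. In all 5 genes both samples lay below every PBS sample, against 22.2% of all genes. At an unadjusted p under 0.05 and a 2-fold change 4 of 5 genes were lower, all but Ms4a3, against 3.95% of all genes. Leaving out Tβ-MCA replicate 3 instead gave a log2 fold change of -1.03 for Mpo and -1.0 for Elane, and 1 of 5 genes at those thresholds, against 1.26% of all genes.

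TCA, the taurine conjugate of cholic acid, was accompanied by small differences that did not pass the test. With TCA, Mpo held 166, 178 and 180 CPM in replicates 3, 4 and 5, all below the PBS samples, and its log2 fold change was -0.22 (SE 0.50, adjusted p = 1.0 in edgeR). Ctsg held 15.4, 14.5 and 17.5 CPM, also all below PBS, with a log2 fold change of -0.22 (SE 0.34). The other 3 genes overlapped PBS, with Elane at 18.02, 26.3 and 23.3 CPM, Prtn3 at 11.1, 13.6 and 12.2 CPM and Ms4a3 at 3.97, 5.68 and 5.96 CPM, and log2 fold changes of -0.16, -0.11 and -0.25. The 2 of 5 genes without overlap compare with 4.76% of all genes tested that lay below PBS in this way. The fit over all 12 samples shares 1 estimate of the spread. In a fit of PBS and TCA alone, the SE of Mpo was 0.061 and that of Ctsg 0.093, their log2 fold changes of -0.22 and -0.23 had 95% confidence intervals from -0.36 to -0.09 and from -0.43 to -0.02, and the adjusted p was 0.999 for both in edgeR. At an adjusted p under 0.05, edgeR called 0 of all genes tested with TCA and DESeq2 called 1, while 546 genes had an unadjusted p under 0.05 in edgeR.

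GCA, the glycine conjugate of cholic acid, gave differences of similar size, and its comparison shares the PBS samples with those of TCA and Tβ-MCA. Mpo held 190, 131 and 205 CPM in GCA replicates 3, 4 and 5, so that replicates 3 and 4 were below and replicate 5 within the range of the PBS samples. Elane held 19.0, 17.4 and 26.0 CPM and Prtn3 12.4, 11.5 and 15.7 CPM, both overlapping PBS. Ctsg held 16.7, 10.2 and 16.3 CPM and Ms4a3 5.10, 4.93 and 4.85 CPM, and these 2 of 5 genes lay below every PBS sample, against 4.83% of all genes tested. The log2 fold changes were -0.21 for Mpo, -0.27 for Elane, -0.01 for Prtn3, -0.36 for Ctsg and -0.32 for Ms4a3, each with an adjusted p of 0.999 in edgeR. GCA replicate 4 held the lowest GCA value of Mpo, Elane, Prtn3 and Ctsg. At an adjusted p under 0.05, edgeR and DESeq2 called 0 of all genes tested, with 591 at an unadjusted p under 0.05 in edgeR.

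TCA and GCA had the same dose and time and differ in the amino acid joined to cholic acid, so they were compared directly. The difference of GCA from TCA, as log2 fold, was 0.01 for Mpo (95% confidence interval -1.15 to 1.16), -0.11 for Elane (-1.36 to 1.13), 0.10 for Prtn3 (-0.44 to 0.63), -0.13 for Ctsg (-0.90 to 0.64) and -0.07 for Ms4a3 (-0.49 to 0.34). In a fit of the TCA and GCA samples alone the interval of Mpo narrowed to -0.36 to 0.37, and that of Ctsg to -0.51 to 0.25. No gene of the 5 had an adjusted p under 0.99 in either fit in edgeR, and 0 of 5 had all GCA samples below the TCA samples or all above them, against 4.19% and 3.81% of all genes tested. Over all genes tested the count at an adjusted p under 0.05 was 0 in edgeR and in DESeq2, with 412 genes at an unadjusted p under 0.05 in edgeR. This leaves differences of the size of these intervals undecided. The dose of Tβ-MCA is uncertain, so Tβ-MCA was not tested against TCA or GCA, and the values stand side by side only.

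**Figure D3:**
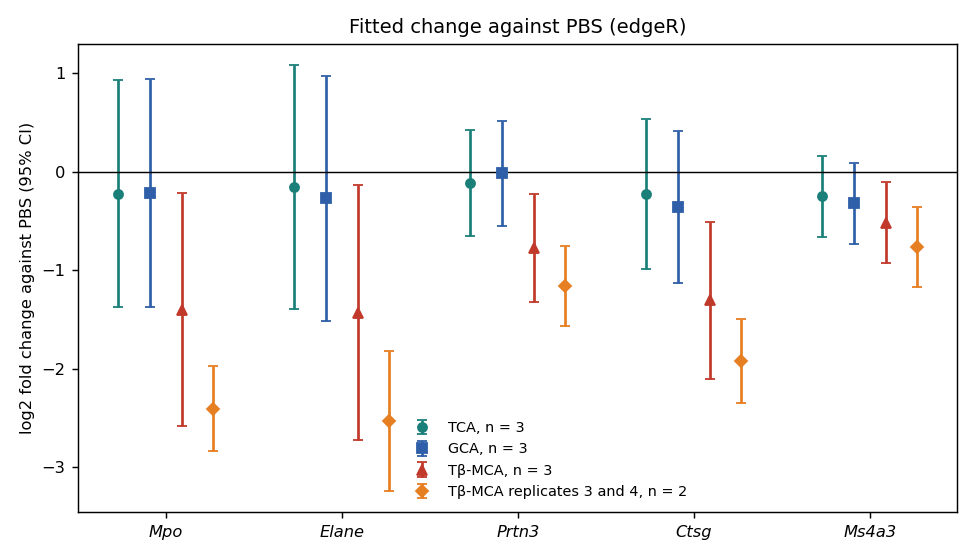
Fitted log2 fold change against PBS (vertical axis) of the 5 azurophil granule genes with its 95% confidence interval in edgeR, for TCA, GCA and Tβ-MCA with 3 samples each and for Tβ-MCA replicates 3 and 4 only. The intervals of TCA and GCA span 0 for all 5 genes, while those of Tβ-MCA lie below 0 before adjustment for multiple testing, for Mpo at -1.40 over all samples and at -2.40 without replicate 5. In a fit of PBS and Tβ-MCA alone, which is not drawn, the intervals of Mpo (-3.28 to 0.48) and Elane (-3.47 to 0.61) span 0.

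Other contents of azurophil granules did not share one direction with Tβ-MCA. Of 14 tested genes in the list, 3 fell and 1 rose at an adjusted p under 0.05, and the median log2 fold change was 0.06. Of all genes tested, 7.62% passed in either direction, and their median log2 fold change was 0.0041. Lyz2, the main lysozyme gene of myeloid cells, fell from between 4322 and 4811 CPM in PBS to 2185, 2103 and 3294 CPM with Tβ-MCA in replicates 3, 4 and 5 (log2 fold change -0.85, adjusted p = 0.0219 in edgeR). Its near-identical copy Lyz1 had a log2 fold change of -1.02 (adjusted p = 0.0307), which is uncertain because reads can be shared with Lyz2. Ctsc encodes cathepsin C, the enzyme that activates elastase, proteinase 3 and cathepsin G by trimming their first residues, and it fell from 24.3 to 25.7 CPM in PBS to 11.6, 9.99 and 19.5 CPM (log2 fold change -0.87, adjusted p = 0.0307 in edgeR). The lysosomal sulfatase gene Arsb rose by 0.40 on the log2 scale (adjusted p = 0.0352 in edgeR). Prss57, which encodes the fourth serine protease of these granules, was at 3.12 to 3.67 CPM with PBS and at 3.62, 4.65 and 4.15 CPM with Tβ-MCA, a log2 fold change of 0.31 with an adjusted p of 0.215 in edgeR. Without Tβ-MCA replicate 5, 3 genes of this list fell and 4 rose, while 9.44% of all genes tested fell. Ctsc then fell by 1.21 on the log2 scale (adjusted p = 4.60e-05) and Lyz2 by 1.09 (adjusted p = 7.27e-05 in edgeR).

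Genes of a list of protease inhibitors, not all of them inhibitors of these granule proteases, were lower as well where they passed the test. Of 5 tested genes, 2 fell and none rose at an adjusted p under 0.05, and the median log2 fold change was -0.71. Of all genes tested, 7.62% passed in either direction. Serpinb1a, a cytosolic inhibitor of elastase, proteinase 3 and cathepsin G, fell from 386 to 490 CPM in PBS to 175, 201 and 314 CPM with Tβ-MCA in replicates 3, 4 and 5 (log2 fold change -0.89, adjusted p = 0.0353 in edgeR). Slpi, a secreted inhibitor of elastase and cathepsin G, fell by 0.79 on the log2 scale (adjusted p = 0.0438), from 57.5 to 73.6 CPM in PBS to 26.2, 37.0 and 50.1 CPM. Serpinb6a, an inhibitor of cathepsin G, had a log2 fold change of -0.09 (adjusted p = 0.565 in edgeR). Without replicate 5, 4 of 6 tested inhibitors fell, against 9.44% of all genes tested. The log2 fold changes were then -1.18 for Serpinb1a (adjusted p = 0.000222) and -1.05 for Slpi (adjusted p = 0.00140 in edgeR).

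Among the genes of the endoplasmic reticulum proteins that fold granule proteins and the peroxidase family, 1 of 6 tested genes fell. Of all genes tested, 7.62% passed in either direction. Hsp90b1, a chaperone gene, fell by 0.51 (adjusted p = 0.0211), from 1064 to 1096 CPM in PBS to 662, 682 and 922 CPM. Calr encodes calreticulin, a chaperone of the myeloperoxidase precursor, and it had a log2 fold change of -0.50 with an adjusted p of 0.0892 in edgeR, which became -0.75 with an adjusted p of 0.000565 without Tβ-MCA replicate 5. Canx, the gene of the related calnexin, had a log2 fold change of -0.11 (adjusted p = 0.271 in edgeR). Without that replicate 4 of 6 genes fell, against 9.44% of all genes tested, and Hsp90b1 had -0.68 (adjusted p = 7.27e-05 in edgeR).

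Transcription factors of myeloid cells, among them regulators of azurophil granule genes, gave 0 of 12 calls over all samples. Of all genes tested, 7.62% were called in either direction. All 12 fold changes were below 0, with a median of -0.26 against 0.0041 over all genes tested. Spi1, which encodes PU.1, had a log2 fold change of -0.17 (adjusted p = 0.152), Cebpe -0.19 (adjusted p = 0.625) and Cebpb -0.23 (adjusted p = 0.107 in edgeR). Without Tβ-MCA replicate 5, 7 of 12 genes fell in edgeR, against 9.44% of all genes tested. They were led by Irf8 with a log2 fold change of -1.15 (adjusted p = 3.63e-05), Cebpa with -0.96 (adjusted p = 4.32e-05), Rara with -1.08 (adjusted p = 0.00247) and Runx1 with -0.35 (adjusted p = 0.0170). Cebpa, a factor needed to form granulocytes, was at 64.0 to 69.7 CPM with PBS, at 34.9 and 34.5 CPM in replicates 3 and 4 of Tβ-MCA and at 61.9 CPM in its replicate 5. Cebpe, a factor of the later granules, held 211 to 349 CPM with PBS and 269, 207 and 237 CPM with Tβ-MCA in replicates 3, 4 and 5, so that only replicate 4 lay below the PBS samples.

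Genes of later granules and of neutrophil precursors were lower in part. Of the specific and gelatinase granule genes, 5 of 14 fell and none rose, against 7.62% of all genes tested called in either direction. Their median log2 fold change was -0.30. Those with the lowest p in edgeR were Hp (-0.44, adjusted p = 0.0208), Chil3 (-0.46, adjusted p = 0.0350), Lcn2 (-0.29, adjusted p = 0.0404) and Camp (-1.14, adjusted p = 0.0417). Hp encodes haptoglobin, Lcn2 lipocalin 2 and Camp the cathelicidin precursor. Of 12 precursor genes, of which Ltf and Camp also stand in the former list, 7 fell and none rose, against the same 7.62%. Among those that fell were Trem3 (-0.40, adjusted p = 0.0238), Igfbp4 (-0.57, adjusted p = 0.0291), Mgst1 (-0.28, adjusted p = 0.0320) and Hdc (-0.91, adjusted p = 0.0350 in edgeR). The median log2 fold change of the precursor genes was -0.68, against -1.30 for the 5 azurophil granule genes. Without replicate 5, 8 of 15 specific and gelatinase granule genes and 8 of 12 precursor genes fell, against 9.44% of all genes tested. In TCA, GCA and the comparison of the 2, no gene of these lists had an adjusted p under 0.05 in edgeR.

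Markers of other cell types moved with the azurophil granule genes to different extents, and their part in the results was not tested. The 12 markers of monocytes and macrophages, cells that share progenitors with neutrophils, summed to 2191 to 2340 CPM with PBS and to 1231, 1454 and 2011 CPM with Tβ-MCA in replicates 3, 4 and 5. None of the 12 passed the test over all samples, against 7.62% of all genes tested, and 9 fell without replicate 5, against 9.44%. All 12 fold changes were below 0. Their median was -0.77 over all samples, against 0.0041 for all genes tested, and -1.18 without replicate 5. The markers with the highest levels had log2 fold changes of -0.20 (Mpeg1, adjusted p = 0.0907), -1.71 (F13a1, adjusted p = 0.146) and -0.42 (Csf1r, adjusted p = 0.241 in edgeR). F13a1 was at 519 to 584 CPM with PBS and at 54.8, 75.9 and 367 CPM with Tβ-MCA, and Ccr2 at 37.3 to 51.2 CPM and at 2.03, 2.70 and 29.2 CPM. The 10 markers of myeloid progenitors summed to 217 to 281 CPM with PBS and to 197, 183 and 213 CPM with Tβ-MCA, with 0 calls over all samples and 1 without replicate 5, in Cd34. Of the most abundant of them, Erg had a log2 fold change of -0.11 (adjusted p = 0.558), Myb -0.52 (adjusted p = 0.104) and Cdk6 -0.15 (adjusted p = 0.385 in edgeR). Kit, the receptor of early progenitors, was at 18.04 to 21.2 CPM with PBS and at 17.3, 17.2 and 22.2 CPM with Tβ-MCA. None of the progenitor or monocyte markers was at 0 in any sample.

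The 15 markers of mature neutrophils summed to 34578 to 40304 CPM with PBS and to 30043, 29040 and 32721 CPM with Tβ-MCA. Of these, 4 fell and 1 rose over all samples, against 7.62% of all genes tested called in either direction. Without replicate 5, 10 fell and 1 rose, while 9.44% of all genes tested fell. Ly6g, the gene of the surface protein named in the labels, fell from 17.8 to 21.4 CPM with PBS to 7.54, 8.32 and 12.9 CPM (log2 fold change -0.99, adjusted p = 0.0208 in edgeR). Fpr2, a receptor for formyl peptides, had a log2 fold change of -0.73 (adjusted p = 0.0235) and S100a8, a calprotectin subunit gene, one of -0.30 (adjusted p = 0.0402 in edgeR). The 12 cell division genes gave 0 calls with and without replicate 5, with sums of 2988 to 3604 CPM with PBS and 3489, 3315 and 3152 CPM with Tβ-MCA. The 9 eosinophil markers were lower as a list, with sums of 164 to 289 CPM with PBS and of 92.4, 64.6 and 147 CPM with Tβ-MCA in replicates 3, 4 and 5, so that all Tβ-MCA samples lay below PBS. All 9 fold changes were below 0 with a median of -0.93, against 0.0041 over all genes tested. Over all samples 1 gene fell, Siglecf (-0.93, adjusted p = 0.0326 in edgeR), and 4 fell without replicate 5. Prg2, the gene of the eosinophil major basic protein, was at 108 to 181 CPM with PBS and at 52.7, 38.9 and 91.1 CPM with Tβ-MCA (log2 fold change -1.18, adjusted p = 0.116 in edgeR, and 0.0346 without replicate 5). The eosinophil markers were above 0 in every sample except for 1 gene at 0 in Tβ-MCA replicate 4, Ear1. Of 7 tested B cell markers 1 fell, Cd79a, also without replicate 5. The 7 tested markers each of basophils and mast cells and of dendritic cells, 3 of T and NK cells and 4 of erythroid cells gave 0 calls with and without replicate 5.

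**Figure D4:**
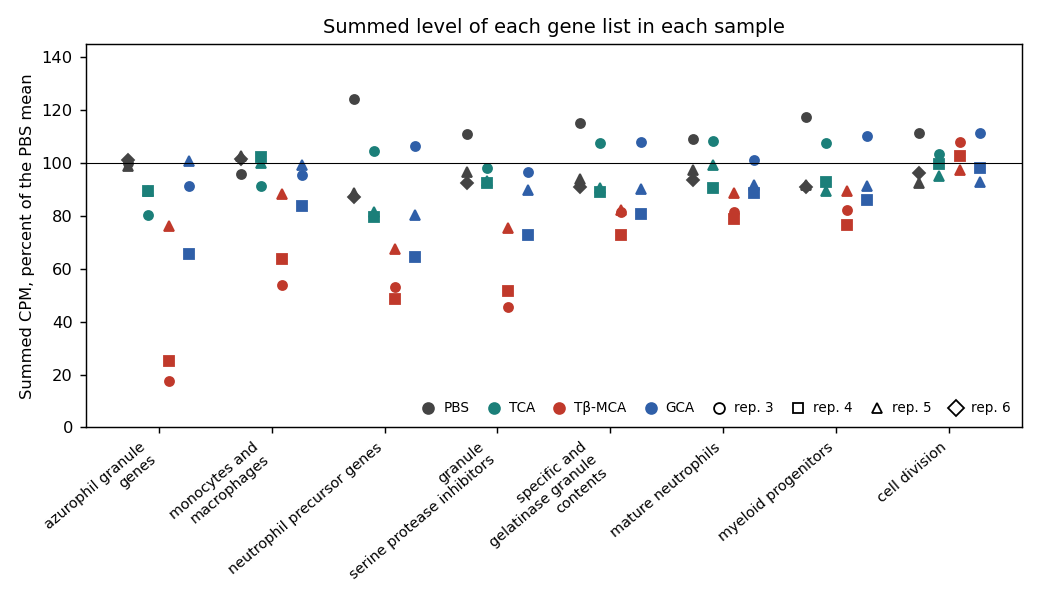
Summed CPM of the 5 azurophil granule genes and of 7 other gene lists in each of the 12 samples, as a percent of the PBS mean of the same list (vertical axis), with 1 color per group and 1 symbol per replicate number. The azurophil granule genes show the lowest values of the lists drawn in Tβ-MCA replicates 3 and 4. The monocyte, precursor and inhibitor lists come next among those drawn, and the cell division genes lie close to the PBS level in all samples. The eosinophil list is not drawn, with sums of 92.4 and 64.6 CPM in Tβ-MCA replicates 3 and 4 against 164 to 289 CPM with PBS. The sums follow the most abundant genes, and Mpo held 66.2% to 78.4% of the azurophil granule counts. In the monocyte list, Mpeg1 held a mean of 1068 CPM with PBS and had a log2 fold change of -0.20. F13a1 of that list had -1.71, against -1.43 for Elane, the lowest of the azurophil granule genes. The median of the monocyte list was -0.77.

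Genes beside the members on the chromosome had mixed fold changes with Tβ-MCA. Within 50000 bases of Elane and Prtn3, Ptbp1 fell by 0.39 (adjusted p = 0.0219) and Plppr3 by 0.31 (adjusted p = 0.0487), while Med16 had a log2 fold change of -0.14 (adjusted p = 0.424 in edgeR). Cfd, the gene on the far side of Elane, was at 0.0387 CPM with PBS, below the limit of 3 counts, and was not tested. Near Mpo, the lactoperoxidase gene Lpo, 2015 bases away, was at 0.0752 CPM with PBS and not tested, while Bzrap1 rose by 0.46 (adjusted p = 0.0452 in edgeR). The overlapping microRNA genes Mir142 and Mir142b, 36654 and 36626 bases from Mpo, fell by 0.46 (adjusted p = 0.0288) and 0.47 (adjusted p = 0.0247 in edgeR), and their counts may be shared. These neighbours that passed the test, Ptbp1, Plppr3, Bzrap1, Mir142 and Mir142b, also passed it in the same direction without Tβ-MCA replicate 5. That replicate was singled out after its values had been seen, so this is no separate support. No gene of the whole series passed without PBS replicate 3 or 5 or without Tβ-MCA replicate 3 or 4. Mcpt8, a basophil protease gene 14665 bases from Ctsg, had a log2 fold change of -0.90 (adjusted p = 0.211 in edgeR). Of the relatives of Ms4a3 beside it, Ms4a2, 5777 bases away, had a log2 fold change of -0.02 (adjusted p = 0.981) and Ms4a6d one of -0.83 (adjusted p = 0.0763 in edgeR), which became -1.16 (adjusted p = 0.00256) without Tβ-MCA replicate 5.

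The pattern over the 12 samples most like that of the 5 genes was found in Gm44805 and Apoc2, with a mean Pearson's r of log2 CPM with the members of 0.944 each, followed by Papss2 (0.943), Cmklr1 (0.942) and Capg (0.942). Gm44805 and Apoc2 overlap on the genome and hold nearly the same counts, so they count as 1 pattern. Apoc2 was at a mean of 35.3 CPM with PBS, 31.1 with TCA, 12.7 with Tβ-MCA and 28.3 with GCA.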

How the data were processed

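Per the submitters' processing notes in the labels, reads were handled with Trimmomatic 0.36, STAR 2.5.3a and featureCounts of Subread 1.5.1 on GRCm38 (mm10). The authors deposited raw counts per gene and RPKM values for 12 samples. The tests used the counts, with RPKM only to compare genes with each other and in an alternative. Groups came from the labels. Columns named GA were taken as GCA.

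In R 4.3.3, edgeR 4.0.16 normalized the counts by TMM, kept 16761 genes with filterByExpr by group and compared groups with the robust quasi-likelihood test over all 12 samples (Benjamini-Hochberg over all genes tested). 95% confidence intervals are from the same fits. Correlations used log2 CPM with a prior count of 2. Total counts were 32757389 to 41375925 per sample. The scripts were tested on simulated data.

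Members and lists were chosen with earlier results of these data known. Named genes were the members, up to 4 called genes of each list with the lowest p or, where fewer than 3 passed, up to 3 of the highest CPM, the 5 genes most like the members, and genes within 50000 bases of a member. Ccr2, Kit and Prss57 were named after their values were seen. The values of 1 gene of the mature neutrophil list are not reported here. Alternatives were DESeq2 1.42.0, its size factors in edgeR, total library size, no filter, a minimum of 10 counts in each of the samples, a fit of the 2 groups alone, a replicate block, limma 3.58.1 on log2(RPKM + 1) or log2(RPKM + 0.1) for genes of mean RPKM 0.5 or more, the test without the robust option and leaving out each sample. Promoter sequences are from RefSeq (GRCm38.p6), in which all 5 genes matched by symbol. Python 3.11.15 was used for ratios, sequences and plots.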

Additional observations from a re-analysis of the deposited data

How the results depend on the processing

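The log2 fold change of all 5 azurophil granule genes with Tβ-MCA stayed below 0 in each of 16 alternatives, but the calls depended on the processing. In edgeR over all samples, 1278 genes had an adjusted p under 0.05 with Tβ-MCA and 494 passed an unadjusted p under 0.05 with a 2-fold change, with 0 and 3 azurophil granule genes. The adjusted count was 1999 genes with 3 azurophil granule genes in DESeq2 (Mpo, Prtn3 and Ctsg), 2406 with 5 under no filter, 803 with 2 in limma on log2(RPKM + 0.1), and 0 genes with only the 2 groups compared. It held 2 azurophil granule genes (Mpo and Ctsg) in limma on log2(RPKM + 1) and without the robust option, and 1 (Ctsg) with at least 10 counts in every sample. The count with a 2-fold change was 849 under no filter, 241 with at least 10 counts, 86 in limma on log2(RPKM + 1) and 287 on log2(RPKM + 0.1), and 1 azurophil granule gene passed with only the 2 groups compared. Leaving out 1 sample moved the adjusted count between 0 and 3076 genes, the 2-fold count between 363 and 961, the adjusted azurophil granule count between 0 and 5 and their 2-fold count between 1 and 4. The highest values came without Tβ-MCA replicate 5. The adjusted count was 0 without PBS replicate 3 or 5 and without Tβ-MCA replicate 3 or 4, and 168 without PBS replicate 6. The azurophil granule count at 2-fold was 1 without PBS replicate 3 or 6 or Tβ-MCA replicate 3 or 4. The adjusted p of Mpo lay between 9.53e-62 (no filter) and 0.359, of Elane between 2.53e-31 and 0.397, of Prtn3 between 3.28e-07 and 0.248, of Ctsg between 4.37e-22 and 0.202 and of Ms4a3 between 0.0112 and 0.354. The value of Mpo under no filter stands beside Tβ-MCA samples of 32.3, 44.5 and 154 CPM, so it is not taken as a measure of support. The cause of the differences between alternatives was not tested.

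No azurophil granule gene was called with TCA, with GCA or between them under any alternative. Under no filter the adjusted counts of all genes were 37, 36 and 42 and the 2-fold counts 287, 308 and 261, against 0 and 78, 89 and 74 in the main fit. With at least 10 counts the 2-fold counts were 8, 7 and 7, and in limma on log2(RPKM + 1) 7, 9 and 13. In limma on log2(RPKM + 0.1) the GCA count was 52, and with only TCA and GCA compared it was 41. DESeq2 called 1 gene with TCA. Leaving out 1 sample gave 2-fold counts of 92 to 127 with TCA, 97 to 137 with GCA and 94 to 122 between them. Small differences changed sign. That of Prtn3 with GCA ranged from -0.16 to 0.075 when 1 sample was left out, and was above 0 without PBS replicate 5 (0.062), GCA replicate 3 (0.027) or GCA replicate 4. Between GCA and TCA, Mpo had -0.0075 and -0.0080 in the limma fits, and leaving out 1 sample gave -0.12 to 0.18 for Mpo (-0.028 and -0.054 without replicate 3 of TCA and of GCA), -0.31 to 0.017 for Elane, -0.044 to 0.19 for Prtn3, -0.25 to 0.060 for Ctsg and -0.23 to 0.033 for Ms4a3.

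With the replicate number as a block, 1498 genes had an adjusted p under 0.05 with Tβ-MCA and 3 with TCA, and 2 azurophil granule genes, Elane and Ctsg, were lower with a 2-fold change at an unadjusted p under 0.05, as were 1.71% of all genes, against 1.86% without the block. Mpo had -1.44 (adjusted p = 0.213) with Tβ-MCA and -0.035 between GCA and TCA under the block. Same-numbered samples are not said to share a mouse or day. Their deviations from the group means correlated with r = 0.24 and 0.06 for Tβ-MCA with PBS, 0.33 and 0.13 for TCA with PBS, 0.32 and 0.13 for GCA with PBS, and 0.31, 0.07 and 0.15 for GCA with TCA. Since not every pair of GCA and TCA, the comparison with 3 pairs, was over 0.1, the numbers were not used to pair samples. GCA replicate 4 correlated better with TCA replicate 5 (r = 0.11) than with its own number. Replicate 3 correlated with replicate 3 of the other group at r = 0.24 to 0.33, and with the other numbers at -0.23 to -0.066. It also stood apart in all 4 groups in the summed basophil and mast cell markers, at 61.7 to 70.8 CPM against 32.4 to 40.99 CPM in the other samples. In PBS, TCA and GCA, but not in Tβ-MCA, replicate 3 was also highest in 2 other lists. The eosinophil markers summed to 254 to 289 CPM there, against 133 to 180 CPM in the other samples of these groups. The precursor genes summed to 5971 to 7093 CPM, against 3676 to 5060 CPM. The main fit does not account for this, and its cause was not tested.

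At this depth the lowest count of an azurophil granule gene was 91. Between the Tβ-MCA samples the SD was 27.3% (Ms4a3) to 94.0% (Elane) of the mean CPM. It was as low as 1.65% for Ctsg with PBS and 2.56% for Ms4a3 with GCA. The share of counting error in this spread was not tested. Total library size instead of TMM moved the median log2 fold change of all genes with Tβ-MCA from 0.0041 to 0.05.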
